A study of Mus musculus with 8 samples.

Results

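The Krüppel-like factors considered here are 10 genes of the KLF family, Klf2, Klf3, Klf4, Klf5, Klf6, Klf7, Klf9, Klf10, Klf13 and Klf16, out of 18193 genes that at least 1 probe set of the array names alone. They were taken as every probe set annotated to exactly 1 of these symbols, which gave 34 probe sets: 7 each for Klf3 and Klf9, 5 for Klf6, 4 for Klf7, 3 each for Klf5 and Klf13, 2 for Klf4 and 1 each for Klf2, Klf10 and Klf16. Expression was measured on 8 single-colour Affymetrix arrays of total RNA from mouse embryonic stem cells grown on gelatin in serum. J1 is the wild-type line, and the cells labelled Rex-1 KO lack, by their label, the zinc finger protein Rex-1, which the gene Zfp42 encodes. Both lines are labelled with the J1 strain. Each was grown with leukemia inhibitory factor (LIF) and without it, giving 4 groups of 2 arrays: J1 with LIF, J1 without LIF, knockout-labelled cells with LIF and knockout-labelled cells without LIF. The series text describes both arrays of a group as biological replicates, but nothing says that they came from separate cultures, so p-values measure only the spread between these arrays, which may be technical. A period of 12 hours without LIF stands in the extraction text, which does not vary between arrays. For the knockout-labelled cells titled as lacking LIF, the culture text still speaks of LIF being added; the titles, with which the treatment text goes, were followed. The number of knockout clones used was not given in the labels. The titles of a group differ by a final letter r; the array without it is called the first array and the array with it the second, and every group holds 1 of each.

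KLF proteins bind DNA through a set of zinc fingers at their C-terminus that reads GC-rich boxes and CACCC boxes, and their diverse N-terminal parts recruit activators or repressors. In mouse embryonic stem cells KLF2, KLF4 and KLF5 help to sustain self-renewal and bind many of the same sites as the core pluripotency factors. LIF acts through its receptor and JAK kinases on STAT3, and Klf4 is known as a direct STAT3 target, whereas Klf2 is known to depend more on other inputs. KLF3 is a repressor that recruits CtBP, KLF6 and KLF7 are broadly expressed relatives of each other, and KLF9, KLF10, KLF13 and KLF16 belong to a group that recruits the Sin3 corepressor.

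Values are log2 of the deposited linear signal, differences are differences of log2 means, and a probe set was called when its Benjamini-Hochberg adjusted p from limma, taken over all 43439 probe sets tested, was under 0.05. Levels of different member probe sets were not compared with each other, since each has its own probes. A log2 of 8 and the marker averages serve only as rough guides to brightness. In Affymetrix names, s_at and x_at mark probe sets whose probes can match further transcripts, as for Klf9 1422264_s_at and Klf6 1447448_s_at and 1459718_x_at, and these are uncertain. The median signal of the arrays ran from 114.2 to 143.5, highest in knockout-labelled cells with LIF on the second array, where 91.2% of probe sets reached a log2 of 4. The Zfp42 probe set read 14.03 to 14.14 in the knockout-labelled arrays and 14.15 to 14.51 in the J1 arrays, so the signal was high in both. The labels do not say which part of Zfp42 was deleted, so this probe set does not check the knockout labels. Socs3, the feedback inhibitor of LIF signalling, read 7.10 to 9.07 without LIF and 10.71 to 11.31 with it on probe set 1416576_at, without overlap. Each marker gene was read by its probe set of highest mean log2 only, here and in the list averages below. Of 9 embryonic stem cell markers, 9 averaged a log2 of at least 8, against 1 of 9 fibroblast or feeder markers, 1 of 7 endoderm markers, 1 of 6 trophoblast markers, 0 of 3 measured mesoderm markers and 3 of 4 neural markers. In these bulk samples, fewer expressing cells and less RNA per cell cannot be told apart.

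The upstream windows of Klf4, Klf7 and Klf2 are printed because the LIF comparison turns on Klf4, the genotype comparison on Klf7, and Klf2 is the pluripotency member whose LIF differences were smallest. Each holds the 250 bases before the annotated start in RefSeq, assembly GRCm38.p6, 5′ to 3′ on the gene's strand, with GC boxes in capitals (GGGCGG, or CCGCCC where the box lies on the other strand). They lie at chr4:55532476-55532725 on the minus strand, chr1:64121390-64121639 on the minus strand and chr8:72318812-72319061 on the plus strand, in that order.
Klf4: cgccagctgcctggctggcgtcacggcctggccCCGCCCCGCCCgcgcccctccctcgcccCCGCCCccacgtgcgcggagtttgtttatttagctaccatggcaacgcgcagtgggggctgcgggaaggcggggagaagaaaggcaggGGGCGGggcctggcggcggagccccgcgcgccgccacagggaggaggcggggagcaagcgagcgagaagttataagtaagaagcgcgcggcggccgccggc
Klf7: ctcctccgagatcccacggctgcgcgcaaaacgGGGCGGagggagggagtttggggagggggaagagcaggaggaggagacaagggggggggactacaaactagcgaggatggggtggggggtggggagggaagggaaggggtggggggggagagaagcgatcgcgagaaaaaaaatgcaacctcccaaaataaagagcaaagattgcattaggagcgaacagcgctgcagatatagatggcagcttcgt
Klf2: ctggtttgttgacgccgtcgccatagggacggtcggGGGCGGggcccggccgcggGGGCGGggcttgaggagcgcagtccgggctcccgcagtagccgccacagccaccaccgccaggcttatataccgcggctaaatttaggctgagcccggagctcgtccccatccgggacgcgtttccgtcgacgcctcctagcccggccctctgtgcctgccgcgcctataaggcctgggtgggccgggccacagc
Klf4 had 4 GC boxes, Klf2 had 2 and Klf7 had 1. Windows were found for 7 of the 10 genes (Klf2, Klf3, Klf4, Klf6, Klf7, Klf9 and Klf13), and their GC content ran from 59.2% for Klf7 to 78.4% for Klf3. A GC box on either strand was present in 6 of the 7, Klf9 being the exception, against 32.7% of all 32851 windows of this length. CACCC on either strand was found in 5 of 7 windows, against 52% of all windows, and was absent from those of Klf4 and Klf6. The STAT-type motif TTCNNNGAA was found in 1 of 7 windows, that of Klf9, against 7.02%, and AANATGGC, a core recognised by the Rex-1 relative YY1, in 0 of 7, against 3.91%. Matches of the GC and CACCC boxes may share bases, and a match is a description of the letters only.

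All 34 probe sets passed the filter on low values, 25 of them averaging a log2 of at least 8. With limma, 0 of 34 were called for LIF withdrawal in J1 cells, in knockout-labelled cells or averaged over both, for knockout-labelled against J1 cells with LIF, without LIF or averaged, or for the interaction of genotype and LIF. Of all probe sets, 0% were called in each of these 7 comparisons. At an unadjusted p under 0.05, members numbered 2 of 34 for LIF withdrawal in J1 cells, where 3.61% of all probe sets had such a p, 1 in knockout-labelled cells against 4.07%, and 2 for the average against 4.02%. For genotype they numbered 1 with LIF against 5.02%, 0 without LIF against 3.68% and 1 for the average against 5.27%, and for the interaction 1 against 3.55%. These shares lie near the background. The median averaged LIF difference was -0.03 over the members and -0.01 over all probe sets, and the median averaged genotype difference was -0.03 over the members and 0.02 over all. The values that follow are therefore described probe set by probe set, and none of these differences passed the adjusted test.

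Klf4, the member of the family classically tied to LIF and STAT3, had lower signal without LIF on both of its probe sets. On 1417394_at J1 cells read 12.28 and 11.79 with LIF and 11.23 and 10.55 without it, first array first, and knockout-labelled cells read 11.78 and 12.09 with LIF and 11.51 and 11.26 without it. All 4 arrays without LIF lay below all 4 with LIF. The averaged difference was -0.85 (SE 0.24, 95% interval -1.45 to -0.25), a level 0.556 times that with LIF, with a limma adjusted p of 1.00. In order of group means the level was 12.03 ± 0.35 in J1 cells with LIF, 11.94 ± 0.22 in knockout-labelled cells with LIF, 11.38 ± 0.18 in knockout-labelled cells without LIF and 10.89 ± 0.48 in J1 cells without LIF (SD, n = 2). The first and second groups in this order overlap, and each of the other steps is between groups that do not. The LIF difference was -1.14 (SE 0.34) in J1 cells and -0.55 (SE 0.34) in knockout-labelled cells, and these differed by 0.59, with a 95% interval that holds 0 and a limma adjusted p of 1.00.

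The second Klf4 probe set, 1417395_at, read 10.76 and 9.74 in J1 cells with LIF, 9.84 and 8.83 in J1 cells without it, 10.39 and 10.13 in knockout-labelled cells with LIF and 10.05 and 9.24 without it. Here conditions overlapped, since the second J1 array with LIF lay below both first arrays without LIF. The averaged difference was -0.77 (SE 0.38, 95% interval -1.71 to 0.17), a level 0.588 times that with LIF. Taken within first arrays alone the LIF difference of 1417394_at was -0.66 and within second arrays alone -1.03, and that of 1417395_at was -0.64 and -0.90. The sign was therefore the same for both Klf4 probe sets in either set of arrays. Over the 8 arrays, which share their groups and array order, their log2 values had a Pearson r of 0.886. For genotype, the Klf4 differences were 0.20 (SE 0.24) and 0.16 (SE 0.38), both smaller than their errors.

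Klf2, a factor that supports the same self-renewal programme, read above 12.5 in every array. Its probe set 1448890_at read 12.97 and 12.92 in J1 cells with LIF, 12.91 and 12.55 in J1 cells without it, 12.88 and 12.71 in knockout-labelled cells with LIF and 12.85 and 12.54 without it. The conditions overlapped. The averaged LIF difference was -0.16 (SE 0.18, 95% interval -0.60 to 0.29) and the genotype difference -0.09 (SE 0.18). The LIF estimates of Klf4 lie outside this LIF interval of Klf2, but the 95% intervals of the Klf4 probe sets overlap it. The difference between Klf4 and Klf2 was itself not tested.

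Klf5, an activator needed in the early embryo and in stem cell self-renewal, is read by 3 probe sets. The first, 1451021_a_at, read 12.37 and 11.25 in J1 cells with LIF, 12.08 and 10.48 in J1 cells without it, 12.23 and 11.55 in knockout-labelled cells with LIF and 12.07 and 11.15 without it. In each group the second array lay below the first. 1451739_at read 8.79 and 9.41, 8.90 and 8.50, 9.27 and 9.21, and 8.99 and 9.11 in the same order of groups, with overlap between conditions. 1430255_at, a dim probe set, read 6.38 and 5.87, 5.53 and 5.96, 6.83 and 6.53, and 5.33 and 6.59. The averaged LIF differences were -0.41 (SE 0.50), -0.29 (SE 0.21) and -0.55 (SE 0.34) for 1451021_a_at, 1451739_at and 1430255_at, all 3 below 0 but each with a 95% interval that holds 0. Within second arrays alone the value for 1430255_at was 0.07, so its sign rests on the first arrays. The averaged genotype differences were 0.21 (SE 0.50), 0.25 (SE 0.21) and 0.38 (SE 0.34) in the same order of probe sets, above 0 also after quantile normalization or centring of each array on its median, but each with a 95% interval that holds 0. For 1451021_a_at the genotype difference was -0.07 within first arrays and 0.49 within second arrays, so its sign rests on the second arrays.

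**Figure D1:**
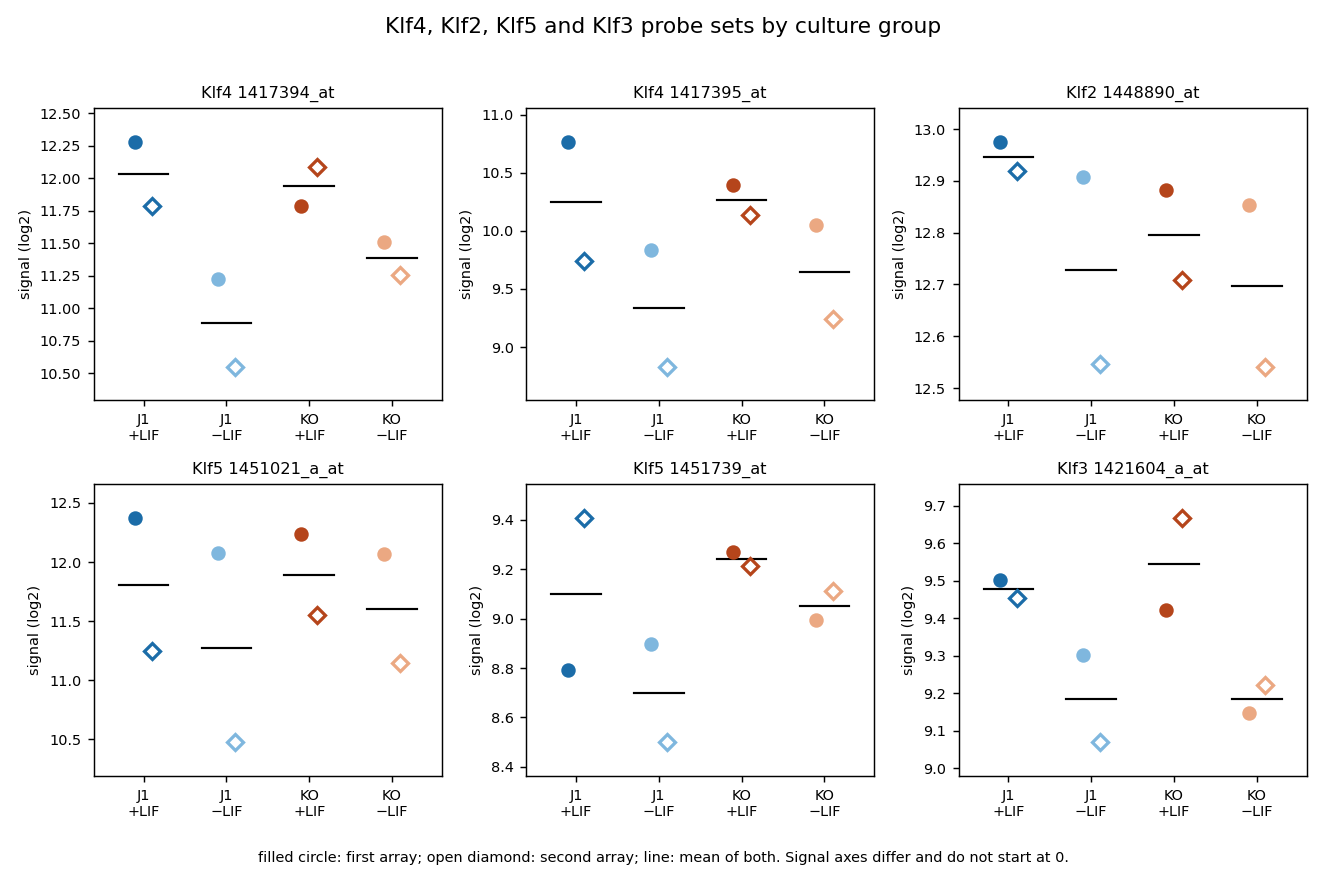
Log2 signal of 6 probe sets of Klf4, Klf2, Klf5 and Klf3 in the 4 culture groups, with filled circles for first arrays, open diamonds for second arrays and a line at the mean of both. The arrays without LIF lie below those with LIF for Klf4 1417394_at and Klf3 1421604_a_at without overlap, while the second arrays lie low for Klf5 1451021_a_at in every group; signal axes differ between panels and do not start at 0.

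Over all members, 2 of 34 probe sets had their 4 arrays without LIF below the 4 with LIF, where 1.33% of all probe sets did, and 0 of 34 had them above, where 1.02% did. Beside Klf4 1417394_at the other was Klf3 1421604_a_at. It read 9.5 and 9.45 in J1 cells with LIF, 9.30 and 9.07 without it, 9.42 and 9.67 in knockout-labelled cells with LIF and 9.15 and 9.22 without it. The gap between conditions was small, and the averaged difference was -0.33 (SE 0.16, 95% interval -0.73 to 0.07).

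The 7 probe sets of Klf3, the CtBP-binding repressor, did not act as one. Their averaged LIF differences ran from -0.45 to 1.16, with 5 below 0. The one farthest above 0, 1458487_at, is dim and read 3.95 and 5.51 in J1 cells with LIF, 5.42 and 5.56 without it, 4.05 and 4.77 in knockout-labelled cells with LIF and 5.96 and 5.98 without it. Its difference of 1.16 (SE 0.39, limma adjusted p = 1.00) came with 2 arrays near the floor of the filter. 1442920_at read 8.15 and 7.96 in J1 cells with LIF and 7.32 and 6.59 without it, but 7.71 and 7.32 in knockout-labelled cells with LIF and 8.0 and 7.44 without it. Its LIF difference was -1.10 (SE 0.36) in J1 cells and 0.20 in knockout-labelled cells, an interaction of 1.30 (SE 0.51, limma adjusted p = 1.00). 1429360_at read between 8.70 and 9.45 and 1441200_at between 8.13 and 9.41, with LIF differences of -0.05 (SE 0.23) and 0.12 (SE 0.37). Over the 8 arrays the pairwise r among Klf3 probe sets ran from -0.66 to 0.70, so no single value stands for the gene.

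Among the remaining genes every averaged LIF difference had a 95% interval that holds 0. Klf6, known from responses to injury and as a tumour suppressor, had 4 of 5 probe sets above 0 without LIF. The highest was 1427742_a_at, which read 7.81 and 8.41 in J1 cells with LIF, 8.78 and 8.81 without it, 7.95 and 8.52 in knockout-labelled cells with LIF and 8.52 and 8.29 without it. Its averaged difference was 0.43 (SE 0.23, 95% interval -0.15 to 1.00), and only the J1 arrays were separated. Klf10, a gene induced early by TGF-beta, read 10.39 and 10.18, 10.18 and 10.00, 10.50 and 9.87, and 10.19 and 9.79 in J1 with and without LIF and knockout-labelled with and without LIF, a difference of -0.20 (SE 0.22). Klf16, a Sin3-binding repressor, read between 8.94 and 9.77, with a difference of 0.03 (SE 0.24). Klf13, of the same class, had differences of 0.35 (SE 0.36), 0.08 (SE 0.27) and -0.23 (SE 0.33) on 1432543_a_at, 1436316_at and 1456030_at, the last at a mean log2 of 4.25. Klf9, a hormone-responsive repressor, had differences from -0.18 to 0.21 over its 7 probe sets, and 1428288_at read between 12.35 and 12.59 on all 8 arrays. The 95% interval of its LIF difference was -0.37 to 0.41.

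**Figure D2:**
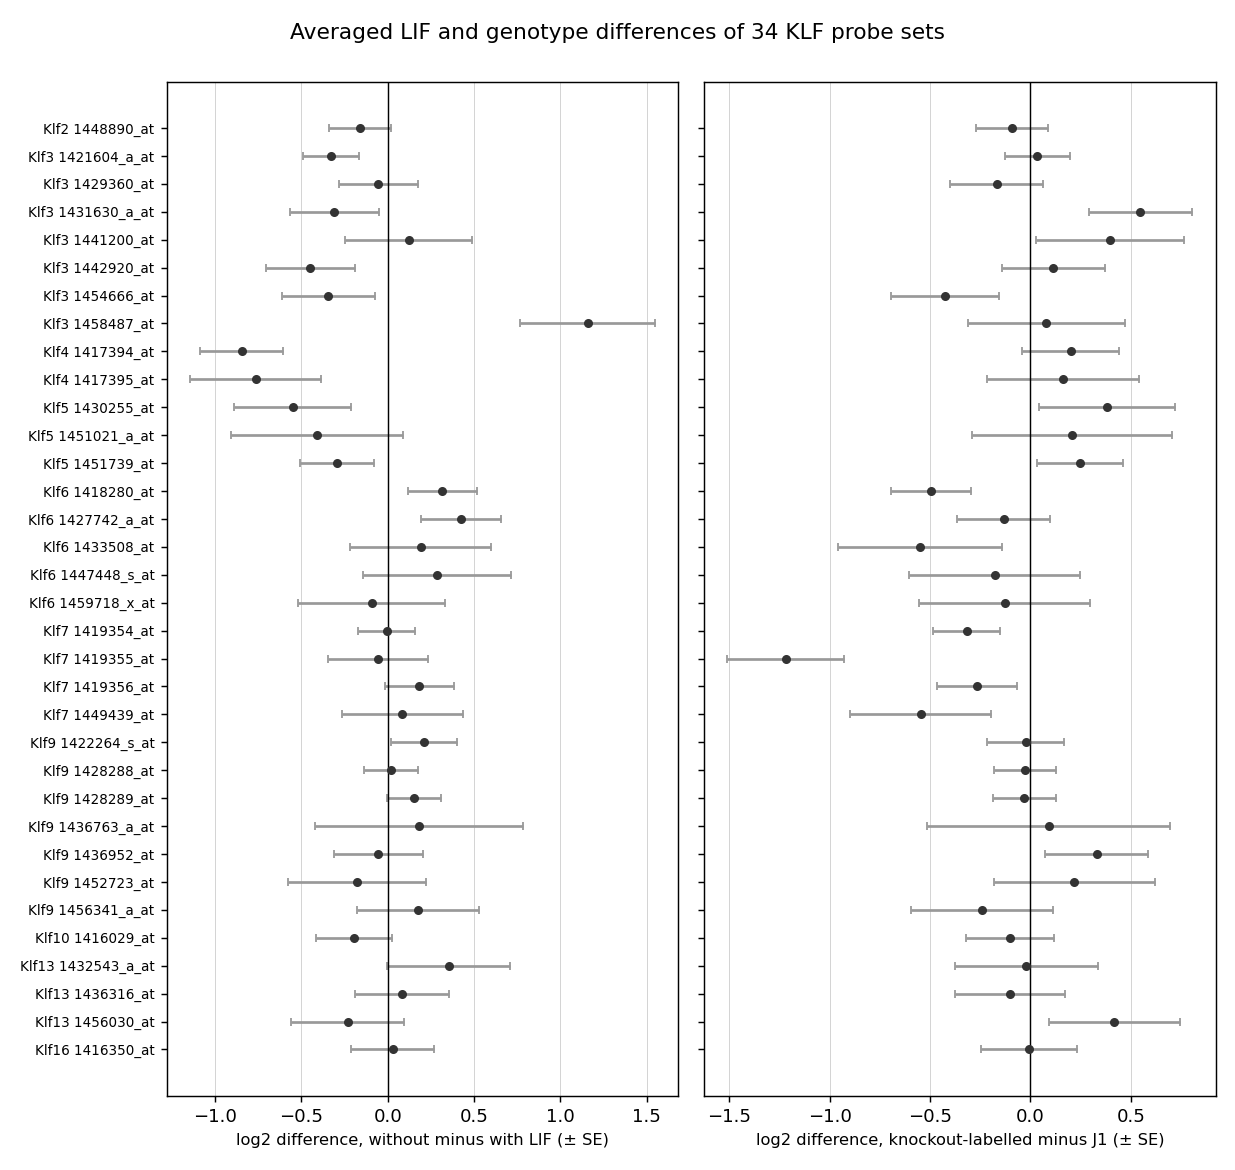
Averaged log2 differences of the 34 probe sets, without minus with LIF on the left and knockout-labelled minus J1 on the right, each point with its limma standard error. The Klf4 and Klf5 points lie left of 0 for LIF, Klf3 1458487_at lies farthest right, and the Klf6 and Klf7 points lie left of 0 for genotype.

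For genotype, the largest averaged difference among the members was on a Klf7 probe set. KLF7 is a close relative of KLF6 known for its part in neuronal development. All 4 Klf7 probe sets read lower in the knockout-labelled cells, also after quantile normalization or median centring. On 1419355_at the J1 arrays read 7.0 and 7.78 with LIF and 6.87 and 7.06 without it, and the knockout-labelled arrays 5.81 and 5.80 with LIF and 6.56 and 5.67 without it. The knockout-labelled arrays lay below all J1 arrays. The averaged difference was -1.22 (SE 0.29, 95% interval -1.94 to -0.50), with a limma adjusted p of 0.807. The probe set is dim: it averaged 6.57, within the 5.83 to 6.70 that the fibroblast marker list averaged on the 8 arrays, so the difference carries an unknown share of background. With LIF the difference was -1.59 (SE 0.41, limma adjusted p = 0.822) and without LIF -0.85.

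The other Klf7 probe sets gave smaller differences. 1419354_at read 8.70 and 8.88 in J1 cells with LIF, 8.99 and 8.70 without it, 8.43 and 8.63 in knockout-labelled cells with LIF and 8.44 and 8.49 without it. Here too the genotypes did not overlap, and the difference was -0.32 (SE 0.17, 95% interval -0.73 to 0.10). 1419356_at read 8.40 and 8.15, 8.47 and 8.34, 7.91 and 8.0, and 8.49 and 7.90 in the same order, a difference of -0.27 (SE 0.20). 1449439_at read 8.52 and 7.99, 8.42 and 7.65, 7.96 and 6.86, and 8.05 and 7.54, a difference of -0.55 (SE 0.35). The genotypes overlapped on both of these. Within first arrays alone the 4 differences were -0.40, -0.75, -0.24 and -0.47 for 1419354_at, 1419355_at, 1419356_at and 1449439_at, and within second arrays alone -0.23, -1.69, -0.30 and -0.62, so the sign was the same in either set. Over all members, 2 of 34 probe sets had their 4 knockout-labelled arrays below the 4 J1 arrays, against 1.74% of all probe sets, and 0 of 34 above, against 2.1%. The mean log2 of the 3 measured mesoderm markers moved with genotype too, at 7.01 to 7.62 in the knockout-labelled arrays and 5.87 to 6.73 in the J1 arrays. These 3 genes averaged 6.30 to 7.22, none under 4, and carry an unknown share of background. The neural list averaged 7.40 to 8.23 in the knockout-labelled arrays and 8.12 to 8.40 in the J1 arrays, with overlap. Every other marker list also overlapped between genotypes. The part of any marker list in the Klf7 and Klf6 values was not tested.

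**Figure D3:**
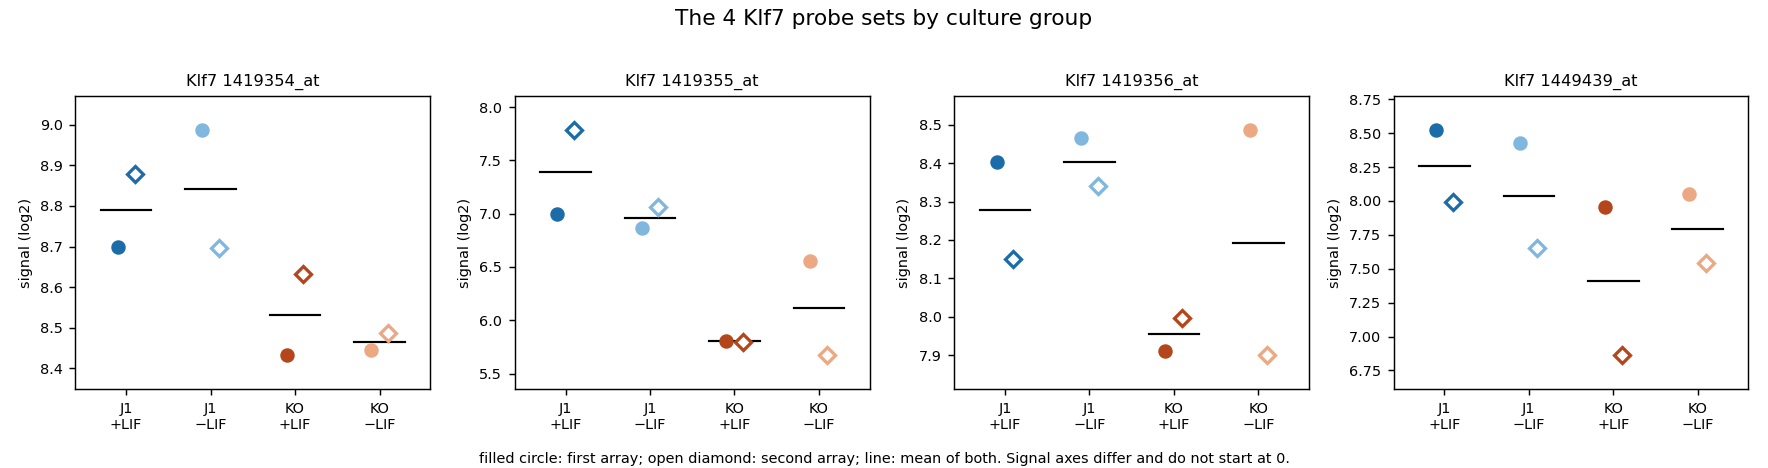
Log2 signal of the 4 Klf7 probe sets in the 4 culture groups, with filled circles for first arrays, open diamonds for second arrays and a line at the mean of both. The means of the knockout-labelled groups lie below those of the J1 groups in every panel, without overlap for 1419354_at and 1419355_at; signal axes differ between panels and do not start at 0.

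Klf6 had all 5 probe sets lower in knockout-labelled cells, with differences of -0.55 to -0.13, also under both other scalings. 1418280_at read 8.0 and 7.73 in J1 cells with LIF, 7.99 and 8.34 without it, 7.24 and 7.47 in knockout-labelled cells with LIF and 7.47 and 7.90 without it, a difference of -0.49 (SE 0.20, limma adjusted p = 0.947). The genotypes overlapped through 1 array of each line. 1433508_at read 9.88 and 8.73, 9.85 and 8.99, 8.99 and 8.36, and 9.41 and 8.48 in the same order, a difference of -0.55 (SE 0.41). On that probe set the arrays of a group differed from each other by more than the genotypes did. For 1447448_s_at the difference was -0.73 within first arrays and 0.37 within second arrays, so the 5 signs were not the same in both sets.

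For genotype, 2 of the Klf3 probe sets pointed opposite ways. 1431630_a_at read 10.34 and 10.67 in J1 cells with LIF, 10.49 and 10.22 without it, 10.81 and 11.61 in knockout-labelled cells with LIF and 10.51 and 10.98 without it, a difference of 0.55 (SE 0.26). 1454666_at read 11.58 and 11.22, 11.27 and 10.85, 11.26 and 10.70, and 11.00 and 10.25 in the same order, a difference of -0.43 (SE 0.27). Their r over the 8 arrays was -0.51. Neither was called by limma, with adjusted p of 0.978 and 0.985. The genotype differences of Klf10 and Klf16 were -0.10 (SE 0.22) and -0.01 (SE 0.24), those of Klf13 ran from -0.10 to 0.42 and those of Klf9 from -0.24 to 0.33, with 95% intervals that all hold 0.

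First and second arrays differed for many members. With a term for the second array beside the group means, limma called 0 of 34 probe sets and 0% of all, but 10 of 34 had an unadjusted p under 0.05 and lower signal on the second arrays, where 5.62% of all probe sets did. In 15 of 34 the second array lay below the first in all 4 groups, against 11.2% of all probe sets, and in 1 of 34, the dim Klf3 1458487_at, above it in all 4, against 16.7%. Among probe sets that averaged a log2 of at least 8, 12 of 25 members lay below in all 4 groups against 21.1% of all, and 0 of 25 above against 21.1%. The members' median second-minus-first difference was -0.22, and that of all probe sets 0.08. Above that level the medians were -0.24 and -0.00. By group the members' medians were -0.28 in J1 cells without LIF, -0.23 in J1 cells with LIF, -0.28 in knockout-labelled cells without LIF and -0.08 in knockout-labelled cells with LIF, beside 0.06, 0.05, 0.05 and 0.14 over all probe sets. Each of the 10 genes had at least 1 of the 15.

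The widest case was Klf9 1436763_a_at, which read 9.21 and 7.78 in J1 cells with LIF, 9.40 and 8.39 without it, 9.44 and 8.17 in knockout-labelled cells with LIF and 9.64 and 7.89 without it. All 4 second arrays lay below all 4 first arrays, and the averaged difference was -1.37 (SE 0.18), a second-array level 0.387 times the first. Not every Klf9 probe set did this on the same arrays. 1428288_at read 12.39 and 12.47, 12.47 and 12.56, 12.59 and 12.35, and 12.39 and 12.46 in the same order, a difference of -0.00 (SE 0.14), and 1452723_at had a difference of 0.62 (SE 0.33). 1456341_a_at read 11.58 and 11.23, 11.68 and 11.48, 11.74 and 10.58, and 11.80 and 10.88, a difference of -0.65 (SE 0.22), and its second arrays also all lay below its first arrays. The pattern therefore varied among probe sets of 1 gene.

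Klf5 1451021_a_at had second-minus-first differences of -1.60, -1.13, -0.92 and -0.68 in J1 cells without and with LIF and knockout-labelled cells without and with LIF, on average -1.08 (SE 0.20). By contrast 1451739_at of the same gene averaged 0.07 (SE 0.21). For Klf6, 1433508_at averaged -0.89 (SE 0.15), 1459718_x_at -0.94 (SE 0.15) and 1447448_s_at -0.78 (SE 0.29), while 1418280_at and 1427742_a_at averaged 0.19 and 0.24. Klf4 1417395_at averaged -0.77 (SE 0.19) and 1417394_at -0.28 (SE 0.21). Klf7 1449439_at averaged -0.73 (SE 0.16) and 1419355_at 0.02 (SE 0.31). Among genes with 1 probe set, Klf10 averaged -0.36, Klf16 -0.40 and Klf2 -0.23, each lower on the second array in all 4 groups. Klf13 1432543_a_at was also lower in all 4, with an average of -0.65. Since every group holds 1 first and 1 second array, a part equal in all groups widens the errors of the LIF and genotype differences without entering their means. A part that differs between groups does enter them. For Klf5 1451021_a_at the genotype difference was -0.07 within first arrays and 0.49 within second arrays.

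**Figure D4:**
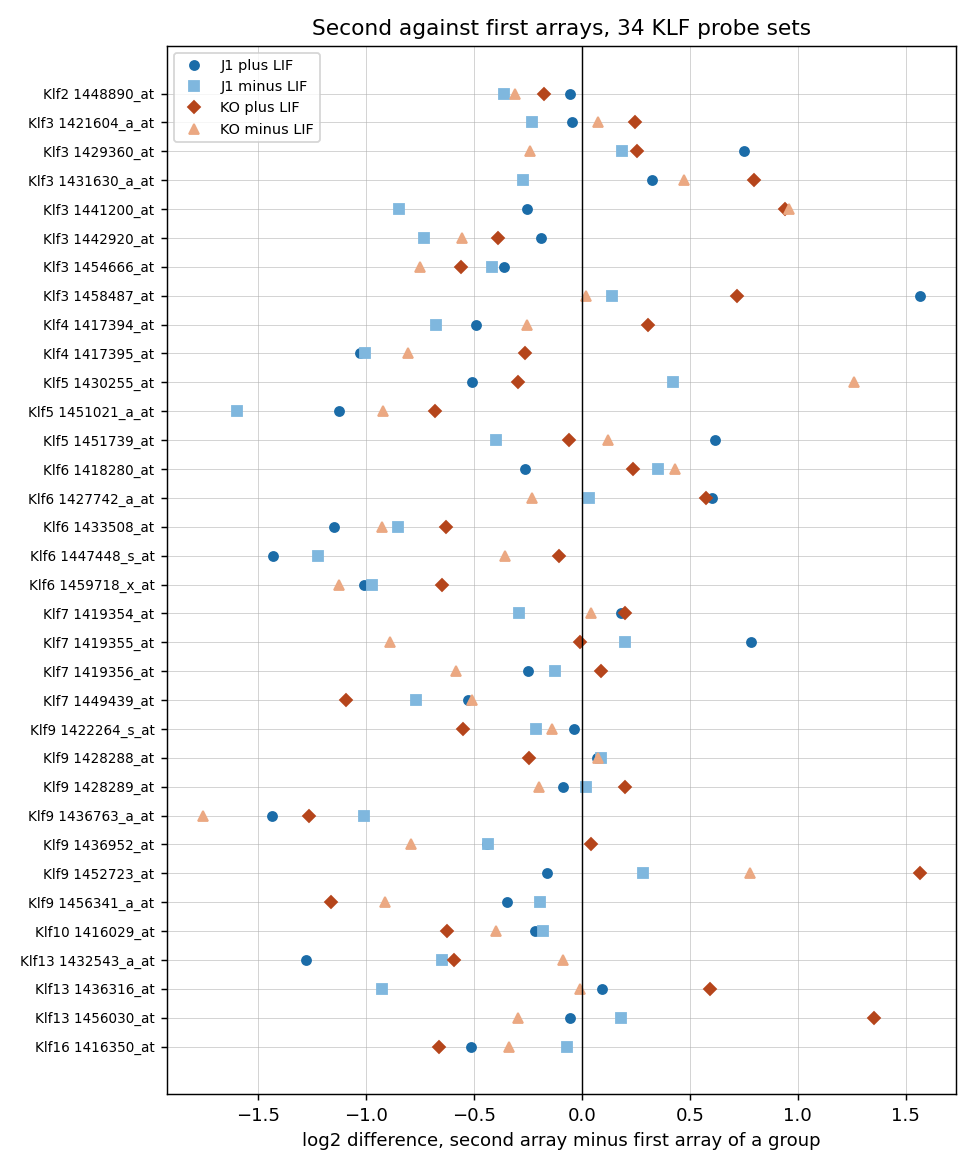
Second-minus-first log2 difference of each of the 34 probe sets, with 1 symbol per culture group. For 15 probe sets all 4 symbols lie left of 0, Klf9 1436763_a_at farthest, while Klf9 1428288_at stays within 0.25 of 0 in each group.

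The median over all tested probe sets was higher on the second arrays by 0.14, averaged over the groups. Centring each array on its median would lower every averaged second-minus-first difference by that amount. Differences within a single group would move by unequal amounts. The log2 ratio of the 3′ to the 5′ Gapdh control, a sign of RNA integrity, was lower on the second array in all 4 groups, with differences of -0.16 to -0.06, and that of Actb moved by -0.0028 to 0.12. The part of either in these differences was not tested. Other settings of limma made calls here. When only probe sets averaging a log2 of at least 8 were tested, limma called 5 of 25 members against 12.3% of all, namely Klf9 1436763_a_at, Klf6 1433508_at, Klf5 1451021_a_at, Klf4 1417395_at and Klf3 1454666_at, with adjusted p from 0.0155 to 0.0291. With a trended and robust variance prior it called 6 of 34 against 4.53% of all, those 5 and Klf9 1456341_a_at, all lower on the second arrays.

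The genes that act with the family were read from lists written with earlier results of these data known, and limma called 0 probe sets in any of them for any comparison. In the LIF receptor and STAT3 list, 6 of 26 probe sets had an unadjusted p under 0.05 for averaged LIF withdrawal, against 4.02% of all in either direction. These 6 were all lower without LIF. They were 3 of Socs3, with differences of -2.99 to -2.70, and 3 of Stat3, the transcription factor itself, with differences of -1.13 to -0.79. The remaining Stat3 probe set, 1459961_a_at, read -0.08 (SE 0.47). The list of pluripotency factors, which share sites with KLF2, KLF4 and KLF5, holds naive factors and also general ones, among them Pou5f1, Sox2 and Sall4. In it 20 of 23 probe sets were below 0 without LIF, against 51.1% of all. The median of the 23 was -0.24 against -0.01 over all probe sets. Probe sets of 1 gene, as for Tbx3 and Nr5a2, are counted separately in these lists. The pluripotency factor probe sets with an unadjusted p under 0.05 were Tfcp2l1 1418091_at, another STAT3-linked factor, at -0.46 (SE 0.16), and Esrrb 1436926_at, an orphan nuclear receptor, at -0.42 (SE 0.17). The other Tfcp2l1 probe sets did not share this, 1460714_at at -0.02 (SE 0.57) and 1460715_x_at at 0.40 (SE 0.44). The other Esrrb probe sets read -0.36 (SE 0.25) and -0.35 (SE 0.25). In the other KLF genes 7 of 10 tested probe sets were below 0, with a median of -0.03, and in the SP factors, the sister family of GC-box binding proteins, 3 of 12, with a median of 0.09. The corepressors, partners and ubiquitin ligases had 10 of 31 below 0 and a median of 0.09, and 1 had an unadjusted p under 0.05: Fhl3, a LIM protein that partners KLF3, at -1.13 (SE 0.44).

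For genotype averaged over LIF, 19 of 23 probe sets of the pluripotency factor list were above 0 in knockout-labelled cells, against 22637 of all 43439. Their median was 0.20 against 0.02 over all. Of these, 4 had an unadjusted p under 0.05: 3 of Tbx3, a T-box factor, at 0.77 to 0.87, and Esrrb 1441921_x_at at 0.74. The other Tbx3 probe sets read -0.02 (SE 0.96) on 1444594_at and 0.60 (SE 0.56) on 1445757_at. The other Esrrb probe sets read 0.03 (SE 0.25) on 1422986_at and 0.35 (SE 0.17) on 1436926_at. Esrrb 1441921_x_at and Tbx3 1437479_x_at are of the uncertain x_at type. The corepressor list was above 0 in 8 of 31, the other KLF genes in 8 of 10, the SP factors in 7 of 12 and the LIF receptor and STAT3 list in 19 of 26, with medians of -0.09, 0.20, 0.02 and 0.08 and 0 probe sets at an unadjusted p under 0.05. Centring each array on its median would lower genotype differences by 0.08 and raise LIF differences by 0.05, which is more than the SP median for genotype and the other KLF median for LIF, so those medians have no settled sign. Klf8, Sp2 and Sp9 were not analysed here.

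The probe sets most like Klf2, Klf4 and Klf5 across the 8 arrays were looked up by Pearson r among 13613 probe sets of 1 symbol that averaged a log2 of at least 8, as a description of arrays that share groups and array order. Nearest to Klf4 1417394_at were Mrpl10 (r 0.958), Itpk1 (0.953), Gal3st1 (0.939), Crybg2 (0.937) and Cln6 (0.930). Their averaged LIF differences ran from -0.40 to -0.08. Nearest to Klf2 1448890_at were Ddx39b (0.958), Pla2g1b (0.954), Ccdc124 (0.953), Nid1 (0.948) and Farsa (0.947), and nearest to Klf5 1451021_a_at were Gadd45gip1 (0.977), Uqcc2 (0.976), Inhbb (0.976), Svbp (0.971) and Ccm2 (0.970). No gene was in more than 1 of these lists. On 1451021_a_at the array-order difference of -1.08 is larger than the LIF difference of -0.41, and the r values take in both.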

How the data were processed

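Total RNA was measured on 8 arrays in 4 groups of 2. The authors deposited 1 linear signal intensity per probe set; GCRMA is named, with no version or role, per the submitters' processing notes. Every deposited column had a mean of 500.003 after trimming 2% at each end, and no log had been taken, so the step that made the values is not known. No detection values were used, and precision is limited by the number of arrays. The 64 control probe sets of 45101 were left out. Gene names came from the platform annotation, in which 34945 probe sets have 1 symbol, 932 several and 9160 none; chromosomes and promoter windows came from RefSeq, GRCm38.p6. For the 10 genes no symbol changed on update.

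Log2 was taken with no pseudocount, and the filter kept probe sets that reached a log2 of 4 on 2 or more arrays. limma 3.58.1 in R 4.3.3 was fitted over all 8 arrays with 1 mean per group and eBayes without a trend; the array-order comparison added 1 term for the second array. Fold values are 2 to the power of the difference. Figures used matplotlib 3.10.9 in Python 3.11.15. The fit was tested on simulated data. The members, lists and rule for named genes (every probe set of the 10 symbols, the pathway lists, Zfp42, Socs3 and the 5 nearest genes) were chosen with earlier results of these data known. Other settings tried were the filter, quantile normalization, a trended and robust prior, pairwise fits, array order as a block, and leaving out each array. Between groups, the second-minus-first differences had correlations of 0.0496 to 0.198, with 2 of 6 pairs under 0.1. The letter r was not taken as a pairing, but such low values cannot show that array order had no shared part. The printed errors, intervals and p for LIF and genotype come from the fit without an array-order term. At most 0.0023% of values were identical between arrays of a group.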

Additional observations from a re-analysis of the deposited data

Results flagged for a closer look

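The genotype difference of Klf3 1442920_at had opposite signs in the 2 culture conditions, with the largest interaction of genotype and LIF among the 34 member probe sets; other members changed sign too, with smaller interactions. Knockout-labelled cells read above J1 cells without LIF, by 0.76, and below them with LIF, a difference of -0.54. The interaction was 1.30 (SE 0.51, 95% interval 0.02 to 2.57), with an unadjusted p of 0.0473 and a limma adjusted p of 1.00, so the difference did not pass the adjusted test. The other 6 Klf3 probe sets had interactions from -0.32 to 0.79.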

How the results depend on the processing

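With limma, 0 members were called in the 7 genotype and LIF comparisons with no filter, a mean log2 of at least 8, quantile normalization, a trended and robust variance prior, the array order as a replicate block, or any array left out. Fits of only the groups compared were made for the 4 simple contrasts, again with 0 called, and were not run for the averages and the interaction. For second against first arrays the count went from 0 to 5 with the floor on the mean and to 6 with the trended prior; with an array left out it was 0 throughout. The higher floor, which removes Klf7 1419355_at, left 1 of 25 probe sets with knockout-labelled arrays all below J1, against 2.71% of all. Quantile normalization brought 1 of 34 probe sets, Klf3 1458487_at, to lie above in all arrays without LIF, against 1.07% of all. The probe set above on the second array in all 4 groups, Klf3 1458487_at, averaged a log2 of 5.15, so the higher floor removed it. That left 0 of 25, against 21.1% of all. With quantile normalization the count was 0 of 34, against 13.8% of all. There its second array lay below the first in both groups without LIF. The values were 5.542 under 5.549 in J1 cells and 5.923 under 6.021 in knockout-labelled cells. Both alternatives were chosen after seeing the data, and the cause of the array-order differences was not tested. The averaged LIF difference of Klf4 1417394_at ran from -1.02 to -0.68 and the genotype difference of Klf7 1419355_at from -1.44 to -0.997 with an array left out, with limma adjusted p over all their alternatives of 0.592 to 1.00 and 0.460 to 1.00. Of the values of single probe sets under these settings, 515 kept their sign and their side of the threshold, 11 became called, all for second against first arrays, and none changed sign. Dim probe sets, among them Klf3 1458487_at and Klf13 1456030_at, carry an unknown share of background.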
